A study of Mus musculus with 6 samples.

Results

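Keratins are the intermediate filament proteins of epithelial cells. The keratin genes described here are the 55 rows, of 57180 genes in the deposited table, whose symbol is Krt followed by a number and at most 1 letter. They carry 54 symbols, since Krt74 stands on 2 identifiers, both at 0 counts in all libraries. The study sequenced RNA of C57BL/6 mouse embryonic stem (ES) cells in 6 libraries, of which 3 were wild type (WT) and 3 had Mpp8 and Tasor knocked out together (dKO, titled MPTA). MPP8, encoded by Mphosph8, and TASOR are core subunits of the human silencing hub, a chromatin complex that silences retroelements and some genes. The labels name no treatment, sex, passage or clone, and they do not say whether the 3 libraries of a genotype came from separate cultures, so the spread between them may be technical. The family was selected on its counts in dKO against WT, where several members were lower, so those values describe the choice and are no test of it.

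A keratin filament is built from equal parts of an acidic type I keratin and a basic type II keratin, and a chain without a partner is usually unstable. Simple, single-layered epithelia and the trophectoderm of the early embryo use mainly the type II keratins KRT8 and KRT7 with the type I keratins KRT18 and KRT19. Stratified epithelia use others, such as KRT5 with KRT14 in basal cells and KRT1 with KRT10 above them, and hair has its own set. Undifferentiated ES cells make few keratin filaments, and keratins are widely used as markers of cells that leave that state for an epithelial fate. In the mouse the type I genes lie together on chromosome 11, and the type II genes lie together with Krt18, a type I gene, on chromosome 15. The rows followed that order, with 27 of the 28 type I genes on chromosome 11, and the 27 type II genes with Krt18 on chromosome 15.

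Total estimated counts per library ran from 18384774 to 24910498, and WT replicate 2 was the deepest. That library also had the largest share of mitochondrial counts, 2.29% against 1.34% to 1.63% in the other libraries. The targeted genes followed the labels: Mphosph8 stood at 128 ± 16.0 CPM (counts relative to the scaled library total, SD, n = 3) in WT and 0.138 ± 0.0810 in dKO, and Tasor at 162 ± 33.7 and 9.85 ± 1.04. Of 15714 genes with enough counts to test, 2814 (17.9%) were called lower in dKO and 2578 (16.4%) higher, at a Benjamini-Hochberg adjusted p under 0.05 in edgeR's quasi-likelihood test. In 3934 of them (25.0%) every dKO library was below every WT library. The shares called lower among the tested genes that are not keratins were 16.7% on chromosome 11 and 18.2% on chromosome 15. On chromosome 14, which holds no keratin gene of the rule, the share was 73.2% of 492 genes, and 7 of 9 tested genes of chromosome Y were called lower. The 8 listed ES cell markers summed to 2416 to 3200 CPM in WT and 2593 to 2990 in dKO, with 1 called lower, Tdgf1, and 7 not called.

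Keratin transcripts were a small part of the RNA in both genotypes. They took 0.0517%, 0.0353% and 0.0476% of the counts in the WT libraries, and 0.00741%, 0.00672% and 0.00775% in the dKO libraries, each in the order of replicates 1 to 3. In summed counts this was 9502, 8788 and 9022 in WT against 1491, 1269 and 1463 in dKO. The 2 genotypes did not overlap. In bulk RNA, fewer cells that express a gene and less RNA per cell cannot be told apart. Of the 55 rows, 15 were at 0 in all libraries, 16 held 1 to 9 counts in all, and 24 held 10 or more. The filter on low counts passed 15 rows, of which 14 also passed it in all 3 dKO libraries, and Krt9 passed it through WT alone. Among those 15, 10 were called lower, 0 higher and 5 not called, against 17.9% lower over all genes tested. At an unadjusted p under 0.05 edgeR also gave 0 higher, as did DESeq2 at its adjusted p. In each of the 10, every dKO library was below every WT library, against 25.0% over all genes tested. Both counts come from the contrast on which the family was chosen.

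**Figure D1:**
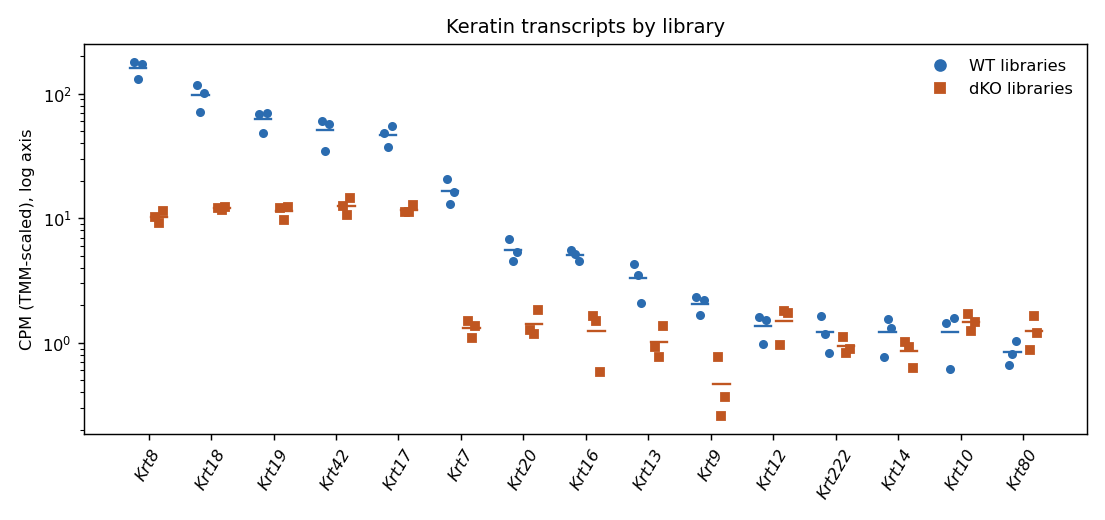
TMM-scaled CPM (log axis) of the 15 keratin genes that passed the low-count filter, ordered by WT mean. Circles are WT libraries, squares are dKO libraries and short lines are means over 3 libraries. From Krt8 to Krt9 every square lies below every circle, and from Krt12 to Krt80 they intermingle.

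The simple-epithelial keratins had the largest falls of the family, from 5.47-fold to 15.8-fold, and all 4 were called lower. Krt8, the type II keratin of simple epithelia, had 3278, 3213 and 3172 counts in WT and 210, 177 and 219 in dKO, in the order of replicates 1 to 3 as throughout. Its level was 162 ± 26.9 CPM in WT and 10.3 ± 1.19 in dKO (n = 3 each). The log2 fold change of Krt8 was -3.98 (standard error, SE, 0.157), a 15.8-fold lower level, with no overlap between genotypes.

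Krt18, the type I partner of Krt8, had 2147, 1758 and 1833 counts in WT and 249, 224 and 236 in dKO. The dKO libraries lay close together at 12.0 ± 0.419 CPM, and the WT libraries were spread over 71.7 to 118 CPM. The log2 fold change of Krt18 was -3.01 (SE 0.181). Krt7, a type II keratin of ducts, glands and trophoblast, had 375, 318 and 298 counts in WT and 31, 21 and 26 in dKO. It was far below Krt8 in both genotypes, and its log2 fold change was -3.65 (SE 0.232), 12.6-fold lower, with no overlap. Krt19, a small type I keratin with a very short tail, had 1253, 1190 and 1267 counts in WT and 249, 188 and 236 in dKO. Its log2 fold change was -2.45 (SE 0.170), the smallest of the simple-epithelial set, again with no overlap.

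Upstream sequences are shown for Krt8, Krt18 and Krt7, the tested genes of the chromosome 15 cluster that were called lower. They are the 250 bases before the RefSeq transcript start on GRCm38.p6, read 5′ to 3′ on the gene's strand. The set of upstream sequences used held entries for 36 of the 54 symbols. Krt8 lies on the minus strand at chr15:102004343-102004592. Krt18 and Krt7 lie on the plus strand at chr15:102027966-102028215 and chr15:101412153-101412402. Capitals mark matches, on either strand, to the 7 motifs searched. The TATA box was searched as TATAAA, the GC box of Sp1 as GGGCGG and the CCAAT box by its own letters. The AP-1 motif was searched as TGANTCA, the AP-2 motif as GCCNNNGGC, the TEAD motif as GGAATG and the KLF motif as CACCC.
Krt8: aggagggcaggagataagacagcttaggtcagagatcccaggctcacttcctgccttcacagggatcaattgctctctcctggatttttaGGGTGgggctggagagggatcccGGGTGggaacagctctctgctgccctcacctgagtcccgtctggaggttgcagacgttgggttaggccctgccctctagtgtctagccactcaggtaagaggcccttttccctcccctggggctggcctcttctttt
Krt18: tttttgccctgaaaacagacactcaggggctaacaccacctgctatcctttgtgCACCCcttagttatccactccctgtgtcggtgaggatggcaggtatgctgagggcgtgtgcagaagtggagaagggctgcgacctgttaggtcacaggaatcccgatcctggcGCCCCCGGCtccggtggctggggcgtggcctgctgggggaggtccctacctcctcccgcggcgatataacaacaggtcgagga
Krt7: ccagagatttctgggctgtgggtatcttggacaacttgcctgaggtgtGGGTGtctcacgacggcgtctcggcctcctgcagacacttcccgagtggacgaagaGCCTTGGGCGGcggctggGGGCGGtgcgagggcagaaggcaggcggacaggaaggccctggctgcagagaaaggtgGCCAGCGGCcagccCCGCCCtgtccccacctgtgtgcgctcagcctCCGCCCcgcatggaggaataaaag
The 3 sequences are unlike in composition. Krt7 held 16 CpG dinucleotides, Krt18 12 and Krt8 3, where the median of 32851 mouse entries was 6, with quartiles of 2 and 16. Krt7 carried 4 GC boxes and 2 AP-2 matches, the first AP-2 match overlapping a GC box. Krt18 carried 1 AP-2 match and Krt8 none, and each of the 3 carried at least 1 CACCC. None of the 3 held TATAAA in this window.

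The other keratins that were called lower had smaller fold changes than the simple-epithelial set, and they are mostly genes of stratified or inducible epithelia. That set was fixed as Krt7, Krt8, Krt18 and Krt19, so Krt20, a keratin of intestinal and gastric lining cells, counts among the others. Of the 51 rows outside the simple-epithelial set, 11 passed the filter, 6 were called lower and 5 were not called. Over all genes tested, 17.9% were called lower. Krt9, among the 6, passed the filter through WT alone, and the 10 others passed it in all 3 dKO libraries. Krt42, a type I keratin whose human counterpart is a pseudogene, had 1086, 857 and 1045 counts in WT and 260, 206 and 275 in dKO. Krt17, a type I keratin induced in stressed and regenerating skin, had 872, 918 and 1003 counts in WT and 234, 216 and 242 in dKO. Both genes had non-overlapping genotypes and almost the same log2 fold change, -2.01 (SE 0.213) for Krt42 and -2.00 (SE 0.154) for Krt17. Krt16, which is induced with Krt6 genes in wounded epidermis, had 100, 126 and 83 counts in WT and 34, 29 and 11 in dKO. Its log2 fold change was -2.02 (SE 0.329), and dKO replicate 3 was the lowest library.

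Krt20, a type I keratin of intestinal, gastric and urothelial lining cells, had 124, 112 and 97 counts in WT and 26, 23 and 35 in dKO, with a log2 fold change of -1.96 (SE 0.258). Krt13, a type I keratin of mucosal stratified epithelia such as oesophagus, had 78, 86 and 38 counts in WT and 19, 15 and 26 in dKO. WT replicate 3 stood closest to the dKO libraries for Krt13, and the log2 fold change was -1.69 (SE 0.348). Krt9, the type I keratin of palm and sole epidermis, had 42, 41 and 40 counts in WT and 16, 5 and 7 in dKO. The log2 fold change of Krt9 was -2.11 (SE 0.419), and it carries the widest error of the 10 genes called lower. The 6 log2 fold changes ran from -2.11 to -1.69, all smaller in size than the -2.45 of Krt19, and the errors of Krt9 and Krt16 reached into its range.

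The upstream sequences of Krt42 and Krt20, which were also called lower, are shown beside those of Krt8, Krt18 and Krt7. Both lie on the minus strand, Krt42 at chr11:100269952-100270201 and Krt20 at chr11:99438154-99438403 (GRCm38.p6, RefSeq), and capitals mark the same motifs.
Krt42: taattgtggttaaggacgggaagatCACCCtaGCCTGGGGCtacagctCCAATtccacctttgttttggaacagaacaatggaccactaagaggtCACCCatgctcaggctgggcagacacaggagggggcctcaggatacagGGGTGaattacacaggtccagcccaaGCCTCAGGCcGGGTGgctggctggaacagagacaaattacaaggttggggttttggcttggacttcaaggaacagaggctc
Krt20: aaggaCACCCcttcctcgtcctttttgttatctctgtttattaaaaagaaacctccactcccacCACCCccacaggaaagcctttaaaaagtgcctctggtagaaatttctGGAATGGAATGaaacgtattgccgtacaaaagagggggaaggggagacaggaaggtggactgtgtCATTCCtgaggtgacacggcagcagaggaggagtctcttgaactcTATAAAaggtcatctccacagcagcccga
Krt20 was the single gene, of the 7 called lower that had an entry, with TATAAA, while 17 of the 36 keratin symbols had it and 12.4% of all entries did. Krt20 also held 3 TEAD matches, of which 2 overlap. AP-2 matches stood in 4 of the 7, Krt7, Krt18, Krt9 and Krt42, in 5 of the 36 keratin symbols and in 13.7% of all entries. CACCC stood in 7 of 7, in 28 of 36 and in 52.0% of all entries. GC boxes stood in 1 of 7, 2 of 36 and 32.7%. AP-1 was matched in 1 of 7, Krt13, in 1 of 36 and in 6.75% of all entries. CCAAT stood in 2 of 7, 15 of 36 and 33.8% of all entries, and TEAD in 1 of 7, 3 of 36 and 12.6%. A symbol with several entries counted once if any entry matched. Krt19, Krt17 and Krt16 had no entry in the set of upstream sequences used. Krt14, Krt12 and Krt10, which were tested and not called, each held CACCC. Krt12 and Krt10 also held TATAAA, Krt10 CCAAT and Krt14 a TEAD match.

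**Figure D2:**
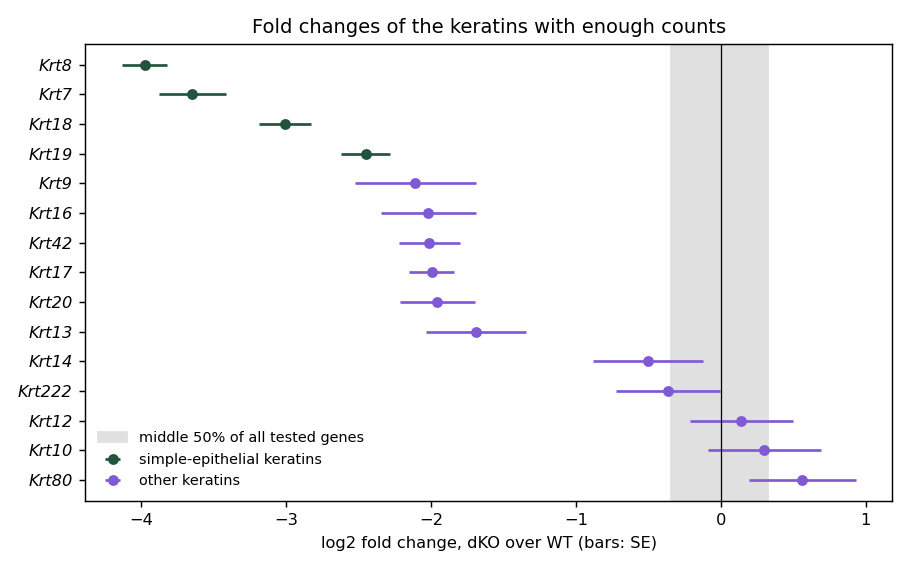
Log2 fold change of dKO over WT with its standard error for the 15 tested keratin genes, over the middle 50% of all tested genes (grey, -0.35 to 0.33). The 4 simple-epithelial keratins run from -3.98 to -2.45, 6 others from -2.11 to -1.69, and 5 others, not called, from -0.50 to 0.56.

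The 5 tested keratins that were not called were low in both genotypes. Krt14, the type I keratin of basal cells in stratified epithelia, had 14, 38 and 24 counts in WT and 21, 18 and 12 in dKO (log2 fold change -0.50, SE 0.378). Krt10, the type I keratin of suprabasal epidermis, had 26, 15 and 29 counts in WT and 35, 24 and 28 in dKO (0.30, SE 0.392). Krt12, the type I keratin of corneal epithelium, had 29, 24 and 28 counts in WT and 20, 35 and 33 in dKO (0.14, SE 0.354). The genotypes overlapped for all 3. Krt80, a type II keratin of several epithelia, had 12, 20 and 19 counts in WT and 18, 32 and 23 in dKO (0.56, SE 0.369). Krt222, a keratin-like type I gene, had 30, 29 and 15 counts in WT and 23, 16 and 17 in dKO (-0.36, SE 0.360). The genotypes overlapped for these genes too, and the errors were of the size of the values.

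The 40 untested rows together held 36, 43 and 31 counts in WT and 46, 40 and 37 in dKO, and no single value exceeded 14. The genotypes overlapped. Among the 6 with the highest summed counts, Krt28, a type I keratin of the hair follicle's inner root sheath, had 11, 10 and 9 counts in WT and 2, 6 and 3 in dKO. Krt78 had 0, 6 and 1 counts in WT and 6, 6 and 14 in dKO, and Krt27, another inner root sheath keratin, 2, 5 and 2 against 5, 2 and 4. Krt5, the basal-cell partner of Krt14, had 6, 4 and 2 counts in WT and 2, 0 and 2 in dKO. Krt79 had 4, 1 and 5 against 6, 3 and 1 counts, and Krt15, also a basal-cell keratin, 2, 4 and 0 against 2, 4 and 2. A count of 0 allows up to 3 counts, or 0.12 to 0.163 CPM, for counting error only. The 26 hair and hair follicle keratins held 117 counts over all 6 libraries and 12 of them none. The 58 keratin-associated protein genes (Krtap), which make the matrix between hair keratins, held 23 counts in all, in 6 genes.

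Levels between keratins were compared in the deposited TPM, a transcript measure that divides by length and by the library total. In WT, Krt8 (141 ± 14.8 TPM) and Krt18 (123 ± 25.4) led with overlapping ranges. Krt19 (75.9 ± 8.18), Krt42 (73.5 ± 16.8) and Krt17 (53.8 ± 3.33) followed, each overlapping its neighbour in the order, and Krt7 stood at 7.62 ± 2.14. In dKO the order of levels differed: Krt42 (21.1 ± 1.81 TPM), Krt19 (16.0 ± 3.02), Krt18 (16.0 ± 1.02) and Krt17 (14.1 ± 0.359) came before Krt8 (9.33 ± 0.340). Krt19 overlapped Krt18 there, and Krt8 lay below all libraries of Krt17. Krt7 was the sixth in WT and stood at 0.573 ± 0.0971 TPM in dKO, below keratins such as Krt10 (2.43) and Krt12 (1.46) that were not called.

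The make-up of the keratin pool differed as well as its size. Summed keratin TPM was 575, 449 and 472 in WT and 95.7, 85.2 and 88.5 in dKO. The simple-epithelial keratins made 69.7% ± 1.36 of it in WT and 46.6% ± 1.25 in dKO, since they went from 347 ± 48.2 to 41.9 ± 3.65 TPM while the others went from 151 ± 20.5 to 47.9 ± 1.77. Krt8 alone went from 28.3% to 10.4% of the pool, and Krt42 from 14.7% to 23.5%. The ratio of Krt8 to its partner Krt18 was 1.16 ± 0.119 in WT and 0.587 ± 0.0439 in dKO. The ratio of type I to type II TPM over all keratins was 2.32 ± 0.193 in WT and 6.72 ± 0.0618 in dKO. None of these ratios overlapped between genotypes, and all rest on the contrast that chose the family.

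**Figure D3:**
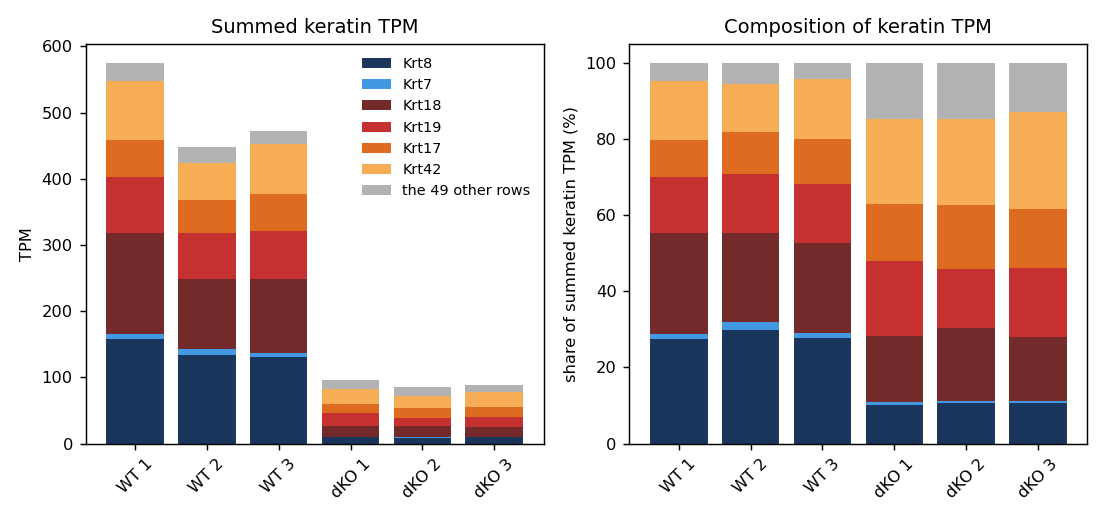
Summed keratin TPM in each library (left, TPM) and the same as shares of the library's keratin TPM (right, percent), with type II keratins in blue, type I keratins in red and orange, and the 49 other rows in grey. WT libraries reach 449 to 575 TPM and dKO libraries 85.2 to 95.7, and the blue part shrinks from WT to dKO.

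The order of the genes along the clusters was read from an annotation on GRCm38. On chromosome 11 the genes called lower were Krt20 and then, in order, Krt13, Krt19, Krt9, Krt16, Krt17 and Krt42. Untested keratins, from Krt23 to Krt36, lay between Krt20 and Krt13, and the untested Krt15 and the uncalled Krt14 lay among the later genes. Krt222, Krt10 and Krt12, all not called, lay on the other side of Krt20. On chromosome 15, Krt8 and Krt18 were next to each other at one end of the cluster, and Krt7 lay next to Krt80, which was not called. The 10 tested genes on each side of each cluster gave 7 called lower, 13 higher and 20 not called, with a median log2 fold change of 0.08. Over all genes tested, 17.9% were called lower and 16.4% higher. The genes beside the clusters were Smarce1 (-0.04) and Eif1 (-0.21) on chromosome 11, and Atg101 (0.13) and Eif4b (0.16) on chromosome 15. No tested gene other than keratins lay between the keratins. These neighbour genes, and the number of 10, were chosen after the tables were seen.

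**Figure D4:**
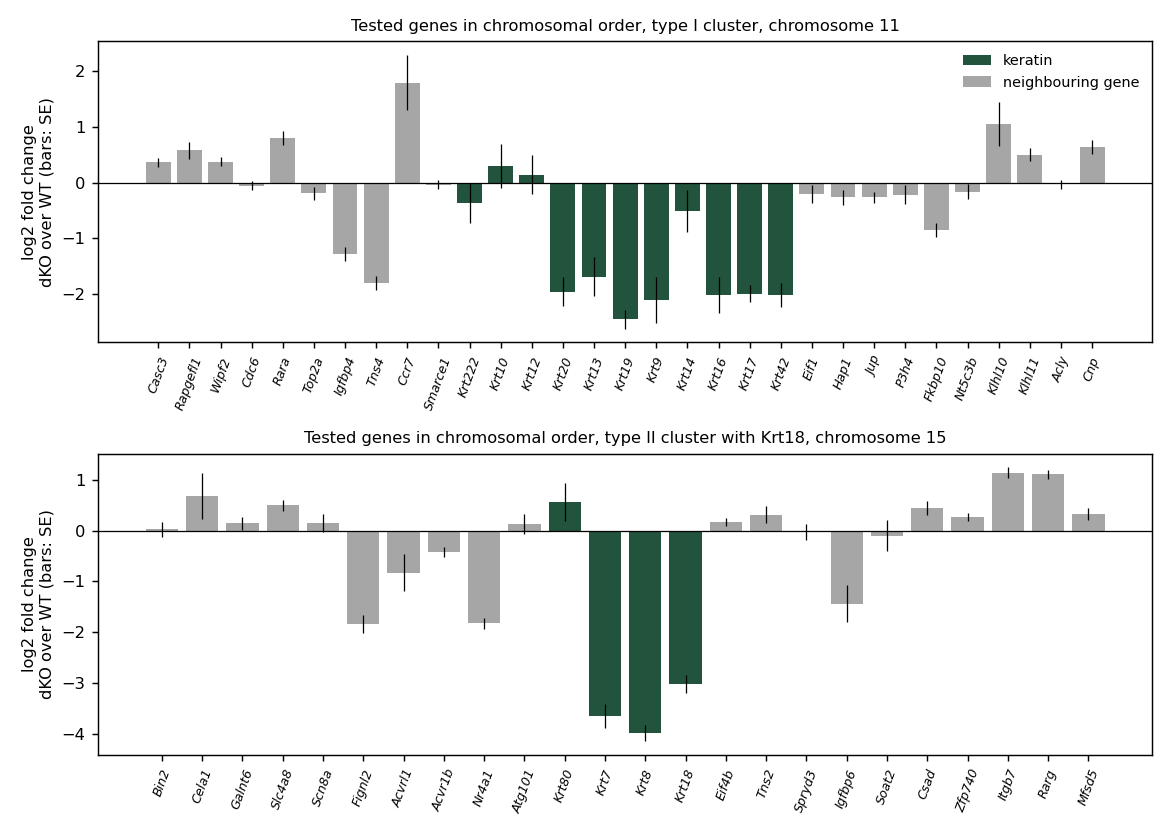
Log2 fold change of dKO over WT with its standard error for the tested genes of both keratin clusters and the 10 tested genes on each side, in order along the chromosome and not to distance. Keratins are green and neighbours grey. The genes next to the clusters, Smarce1, Eif1, Atg101 and Eif4b, lie between -0.21 and 0.16, and Krt7, Krt8 and Krt18 lie at -3.65, -3.98 and -3.01.

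Genes that work with keratins were described from 5 lists beside the same count over all genes, where 17.9% were called lower, 16.4% higher and the median log2 fold change was -0.02. A member that passed the low-count filter in all 3 libraries of 1 genotype and not in all 3 of the other is said below to have passed through that genotype alone, and since such a gene had to differ or lie near the limit, the counts are also given over the members that passed in all 6 libraries. Of 17 tested genes for keratin partners and linkers, 10 were called lower, 0 higher and 7 not called, with a median of -0.66. The count higher was also 0 in edgeR at an unadjusted p under 0.05 and in DESeq2. Dsc3, among the 10, passed the filter through WT alone, and of the other 16, 9 were called lower. Dsp, the desmosomal linker that ties keratin filaments to the membrane, fell from 46.8 ± 3.91 to 13.9 ± 0.218 CPM (log2 fold change -1.75, SE 0.108). The desmosomal plaque proteins Pkp2 and Pkp3 (-1.02 and -1.45) and the desmosomal cadherin Dsc2 (-2.23) fell as well. The 2 most abundant members that were not called were listed apart: Dst, a linker of hemidesmosomes, at 0.14 (SE 0.0969), and Jup, or plakoglobin, at -0.26 (SE 0.100).

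Of 20 tested genes for simple epithelium, 16 were called lower, 1 higher and 3 not called, with a median log2 fold change of -0.91, and all 20 passed the filter in every library. Epcam, an epithelial adhesion molecule, fell from 260 ± 14.6 to 90.1 ± 4.44 CPM, and Cldn4 and Cldn7, tight junction claudins, had log2 fold changes of -2.15 and -2.32. The classical cadherin Cdh1 was not called (592 ± 36.6 and 555 ± 30.8 CPM, -0.09). Cdh3, another classical cadherin named after its value was seen, was called higher (0.56). Of 6 tested genes of the cornified envelope, the hard shell of outer epidermis, 5 were called lower and 1 not, with a median of -2.24. Tgm1 (-2.77), a cross-linking enzyme, Flg (-2.65), a filament-aggregating protein, Krtdap (-3.45) and Hrnr (-1.84) were among the 5. Tgm3, another cross-linking enzyme, was not called, at 0.50 (SE 0.467). Krtdap and Hrnr passed the filter through WT alone and Tgm3 through dKO alone, which left 3 genes, all called lower. Tgm1 lies on chromosome 14. The list's Sprr1b, Sprr2a1, Sprr3, Lce1a1 and Cnfn were at 0 in all libraries.

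Of 20 tested transcription factors linked to keratin genes, 12 were called lower, 0 higher and 8 not called, with a median log2 fold change of -1.01. At an unadjusted p under 0.05 edgeR gave 2 higher, and DESeq2 called 1 higher. Elf5 and Gata3, both called lower, passed the filter through WT alone and Tfap2a, not called, through dKO alone, and of the other 17, 10 were called lower. Elf5, a factor of trophoblast and glandular epithelium, had the lowest value (-4.96), from 3.35 ± 0.652 to 0.102 ± 0.105 CPM, and Klf5 (-1.61) and Tead4 (-1.51) fell too. Klf5 lies on chromosome 14. Sp1 (0.24) and Elf3 (0.37) were not called, and Trp63 and Tfap2b were untested. This list shares 4 genes with the trophoblast markers and 1 with the simple epithelium list. The list of 16 other intermediate filament genes gave 6 called lower, 3 higher and 7 not called, with a median of -0.07. Of them 12 passed the filter in every library, with 5 called lower and 2 higher, and among the rest Bfsp1 (called lower) passed through WT alone and Bfsp2 (called higher) through dKO alone. The nuclear lamin Lmna (-2.12), the neurofilament genes Nefh (-1.76) and Nefl (-1.78, chromosome 14) and Prph (-1.93) fell, and Lmnb2 (-0.11) was not called. The list also held Syne2 (-0.03, not called), a nuclear envelope protein that is no intermediate filament protein. Without Syne2 the list gave 6 called lower, 3 higher and 6 not called, with a median of -0.11. Vim (0.58), Nes (0.38) and Bfsp2, named after their values were seen, were called higher, and Bfsp2 had 0 counts in all WT libraries against 19, 18 and 18 in dKO.

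**Figure D5:**
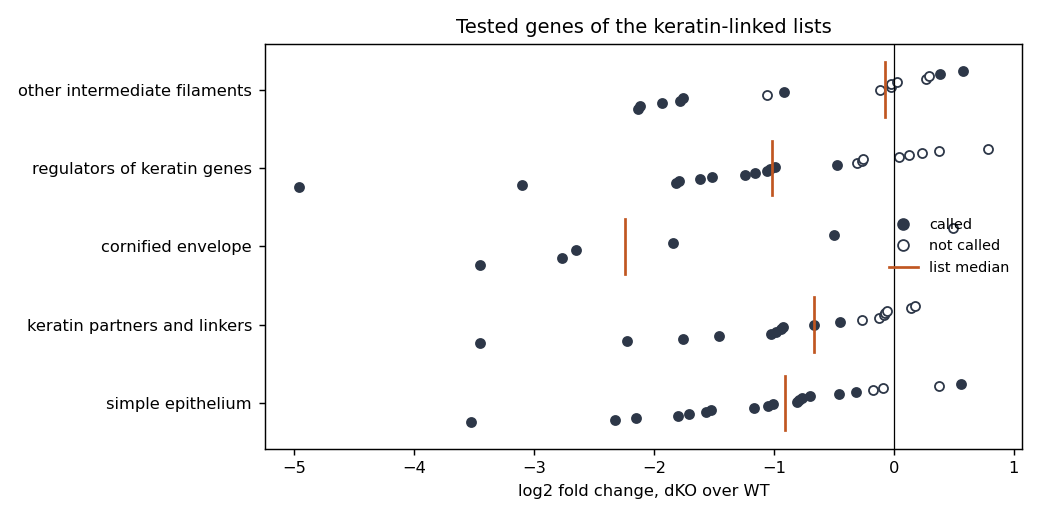
Log2 fold change of dKO over WT for the tested genes of 5 keratin-linked lists; filled points were called, open points were not, and orange lines are the list medians (-0.07 to -2.24). Bfsp2, at 0 counts in all WT libraries, is left out of the points.

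Markers of other cell types are given beside the 17.9% of all tested genes called lower and the 16.4% called higher. Of 8 tested trophoblast markers, Krt7 among them, 7 were called lower, and the list's summed level was 180 to 238 CPM in WT and 59.9 to 63.5 in dKO. Without Krt7 it was 167 to 218 CPM in WT and 58.4 to 62.1 in dKO, with 6 of 7 tested called lower. Elf5 and Gata3 passed the filter through WT alone, and of the other 6 tested, Krt7 included, 5 were called lower. Among the untested markers of the list, Tpbpa was at 0 in all libraries and Prl3d1 was at 0 in WT. Cdx2, also untested, had 6, 4 and 16 counts in WT and 2, 1 and 0 in dKO. Of 6 tested primitive endoderm markers, 3 were called lower and 1 higher, with a sum of 285 to 297 CPM in WT and 137 to 144 in dKO, and Ttr at 0 in all. Lamb1, a laminin chain, carried that sum, with 277 to 289 CPM in WT and 130 to 136 in dKO. Without Lamb1 the sum was 7.11 to 9.10 CPM in WT and 7.54 to 7.74 in dKO, and these ranges overlap. The other 2 called lower, Gata4 and Sox7, lie on chromosome 14, where 73.2% of tested genes were called lower, and both passed the filter through WT alone. Gata6, not called, passed through dKO alone. Of the 3 markers that passed in every library, 1 was called lower, 1 higher and 1 not called. Keratinocyte markers summed to 3.35 to 4.50 CPM in WT and 3.15 to 3.87 in dKO, and 1 of 3 tested, Dsc3, was called lower. Dsc3 had 19, 15 and 14 counts in WT and 3, 1 and 0 in dKO, and it passed the filter through WT alone. Krt14 and Krt10, the other tested markers, were not called. Among the untested ones, Trp63 had 2, 3 and 1 counts in WT and 7, 10 and 4 in dKO. Lor had 9, 3 and 3 against 6, 8 and 13. Ivl had 0, 1 and 0 against 2, 3 and 0, and Dsg3 1, 0 and 6 against 2, 1 and 0. Fibroblast or feeder markers summed to 36.1 to 44.7 CPM in WT and 58.7 to 61.2 in dKO, with 5 of 9 tested called higher. Of these 5, Dcn, Postn and Prrx1 passed the filter through dKO alone. The part of these markers in the keratin values was not tested.

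Libraries within a genotype also differed. In WT, replicate 2 had the lowest CPM of the 3 for 8 of the 10 keratins called lower, and over all tested genes it was the lowest in 40.2%. The TMM-scaled level of Krt8 was 181, 131 and 174 CPM in the WT libraries. Without WT replicate 2 the 10 genes stayed called, with log2 fold changes such as -4.11 for Krt8, -3.19 for Krt18 and -1.65 for Krt13. Krt8 sequence is shared with a pseudogene, Krt8-ps, and with Gm36026, over 23.5% of its transcript windows of 75 bases, and both were at 0 counts in all libraries. Krt16 shares 28.9% of its windows with Gm11597 or Krt14, and Krt12 shares 35.6% with A830036E02Rik. Summed over all libraries, Gm11597 held 1 count, Krt14 127 and A830036E02Rik 17, against 383 for Krt16 and 169 for Krt12. The estimated counts of Krt8, Krt16 and Krt12 are uncertain as single genes, while Krt18, Krt19, Krt17, Krt42, Krt20, Krt13 and Krt9 share none.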

How the data were processed

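RNA was measured in 3 WT and 3 dKO libraries. Per the labels' protocols, total RNA went into an Illumina TruSeq kit. Selection of polyadenylated RNA and use of strand were not given in the sources used here. Build GRCm39 and the tools RSEM, HISAT2 2.1.0, DESeq 1.26.0 and FastQC are named, without roles, per the submitters' processing notes. The authors deposited 1 table with expected counts per gene, estimated counts that need not be whole, and TPM per library. Per the file headers it also holds a gene length in bases, used for a length check, and the authors' own fold (ratio), log2 fold and p-value columns, which are not quoted here.

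Expected counts were rounded to whole numbers. Genes were kept with filterByExpr by genotype, scaled with TMM factors and tested with edgeR 4.0.16 in R 4.3.3, with robust quasi-likelihood fits on genotype alone. A gene was called where its Benjamini-Hochberg adjusted p, over 15714 genes, was under 0.05. The common biological coefficient of variation was 0.156. SE was taken as the absolute log2 fold change over the root of F. CPM are TMM-scaled and given as mean ± SD over 3 libraries. Counting intervals cover counting error only.

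The keratins, the lists and the rule for named genes were chosen with earlier results of these data known. Every keratin that passed the filter or is simple-epithelial was named if it held 10 or more summed counts, with the 6 untested ones of highest count. From each list came up to 4 called genes, by smallest p, and up to 2 uncalled ones, by highest level. Some genes that this rule names are not reported here. Chromosome and gene order came from RefSeq, on GRCm38, so only order was used outside the printed sequences. Transcript windows shared between genes were read from the transcripts of GENCODE M21. Steps were tested on simulated data. Python 3.11.15, pandas 2.3.3 and matplotlib 3.10.9 were used for summaries and plots. Alternatives were DESeq2 1.42.0, other scalings, no low-count filter, a replicate block and leaving out each library.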

Additional observations from a re-analysis of the deposited data

How the results depend on the processing

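The same 10 keratin genes were called lower, and 0 higher, under all 11 alternatives (DESeq2's test, DESeq2 size factors, library totals, no low-count filter, a replicate block and leaving out each library). The signs of 2 uncalled genes were not stable. Over the fits that left out each library, the log2 fold change of Krt12 ran from -0.066 to 0.38 and that of Krt10 from -0.041 to 0.54, both lowest without WT replicate 2, and Krt12 was also below 0 without dKO replicate 2. All genes called numbered 3588 to 6833 when each library was left out, against 5392, lowest without dKO replicate 1, where 1845 were called lower. Transcription factors linked to keratin genes called higher numbered 0 in the report, 2 with library totals, with no low-count filter and with the replicate block, 1 with DESeq2, and 0 to 2 when each library was left out. Simple epithelium genes called higher numbered 1 in the report and 2 with library totals, with no low-count filter, with the replicate block and with DESeq2. With counts per length in place of TPM, the type II to type I ratio of the simple-epithelial keratins was 0.818 in WT and 0.357 in dKO, against 0.753 and 0.311 in TPM, and their share of the keratin total was 71.9% and 49.3%, against 69.7% and 46.6%. The type I to type II ratio over all keratins was 2.07 in WT and 5.66 in dKO, against 2.32 and 6.72 in TPM. The cause of these shifts was not tested. Deviations of libraries with the same number correlated at -0.0763, 0.273 and 0.329 for numbers 1, 2 and 3. WT replicates 2 and 3 matched the dKO library of their own number best, and WT replicate 1 matched dKO replicate 3 best. Whether the numbers pair the samples was not settled, and the replicate block gave 6794 genes called, against 5392 without it. Of the 40 untested keratins, single counts of at most 14 limit what could be seen.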
